A study of Homo sapiens with 24 samples.

Results

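Gene expression was compared between SKBR3 cells treated with ND-646 and SKBR3 cells treated with alisertib. The comparison used the 6 libraries labelled with these agents, 3 for each, of the 24 libraries in the series, and 13750 of the 14493 genes in the count table were tested. SKBR3 is an established human breast cancer cell line of luminal type in which the ERBB2 (HER2) locus is amplified. ND-646 was given at 250 nmol/L and alisertib at 500 nmol/L, both with fresh drug on day 3 and collection of RNA on day 7. SKBR3 cells kept for 7 days without either agent (n = 3) are used as the time-matched reference. Their labels name no renewal on day 3, so this reference may also differ from the drug groups in feeding. All groups are cultures of the same unmodified line, so they model what 1 line does under each agent at 1 dose. The methods mention independent experiments for cell-based observations in general, but neither they nor the labels say that the sequenced replicates were separate cultures, and p-values then measure only the spread between these libraries, which may be technical.

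ND-646 inhibits both forms of acetyl-CoA carboxylase (ACC), ACACA in the cytosol and ACACB at the mitochondrial surface. ACC makes malonyl-CoA, which is the building block of fatty acid synthesis by FASN and an inhibitor of CPT1, the carrier step that admits long-chain fatty acids to mitochondria. Alisertib inhibits Aurora A (AURKA), a mitotic kinase that matures centrosomes and builds the spindle. Both agents were used by the study to bring on therapy-induced senescence (TIS). TIS is a cell cycle arrest, not always permanent, in which lysosomal content, secreted factors and metabolism usually change. In the paper's washout assay, run at a higher ND-646 dose, ND-646-treated cells partly regained colony formation and alisertib-treated cells did not. The comparison here asks which transcripts separate TIS of a metabolic origin from TIS of a mitotic origin.

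The libraries carried the marks of the line. Levels are given as CPM, read counts scaled to a common library size with TMM factors. ERBB2 lay between 6040 and 8530 CPM in the 6 libraries, KRT8 between 1820 and 3420 CPM, KRT19 between 1220 and 2330 CPM, EPCAM between 310 and 592 CPM and FOXA1 between 208 and 241 CPM, while ESR1 has no row in the table. Of 16 markers of other cell types 4 were tested, and PTPRC, CD3E, CD14, LYZ, COL1A2, PECAM1 and ALB have no row. The summed level of those tested was 64.1 to 73.2 CPM in ND-646 libraries and 23.3 to 25.5 CPM in alisertib libraries. With ND-646 most of it came from CD68, a lysosomal glycoprotein best known from macrophages, at 54.5, 43.5 and 42.0 CPM with ND-646 and 4.78, 5.78 and 5.08 CPM with alisertib. Of the other members tested, CDH5 was higher with ND-646 and VWF lower (log2 fold changes 0.83 and -3.10), and COL1A1 was not called. The part of other cells in these values was not tested.

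Total counts ran from 29405121 to 30402853 in ND-646 libraries and from 30672820 to 43705589 in alisertib libraries. ND-646 replicate 1 stood apart from the other two: messenger RNAs of ribosomal proteins took 10.9% of its counts, against 6.72% and 6.23% in replicates 2 and 3 and 5.39% to 5.99% with alisertib. Transcripts of mitochondrial DNA took 5.19% to 5.94% of the counts with ND-646 and 2.23% to 3.82% with alisertib, and the 10 most abundant genes took 9.82% to 11.7% and 6.55% to 7.24%.

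In the direct comparison, 1716 genes were higher in ND-646 cells (12.5% of the genes tested) and 1850 were lower (13.5%) at an adjusted p-value under 0.05 by edgeR's quasi-likelihood test, which is what called means below. Of these, 673 and 954 differed at least 2-fold. Counts of list members given below are to be read against these shares, 12.5% higher and 13.5% lower. The groups of libraries did not overlap for 6460 genes (47% of those tested). Against untreated day 7 cells, 2354 genes were higher (17.2%) and 2338 lower (17.1%) with ND-646, and 1318 were higher (9.55%) and 1309 lower (9.49%) with alisertib. With the replicate number as a block the alisertib counts were 2116 and 2025. Both of these contrasts use the same day 7 libraries, so their values are set side by side here without a test between them. Of the genes higher with ND-646 than with alisertib, 1103 were above day 7 with ND-646 and not called with alisertib, 317 were above day 7 with both agents and 26 were above with ND-646 and below with alisertib. Of the genes lower with ND-646, 1187 were below day 7 with ND-646 and not called with alisertib, 340 were below with both agents and 34 were below with ND-646 and above with alisertib. With the alisertib side taken from the fit with the replicate block, these counts were 904, 493 and 49 for the genes higher with ND-646 and 1011, 483 and 67 for those lower.

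These totals moved with the libraries and the scaling. Without ND-646 replicate 1 they were 3235 and 3380, and without alisertib replicate 1, 2 or 3 they were 802 and 1086, 809 and 1067, or 698 and 927. Scaling by library totals alone, an alternative added after the data were seen, lowered the log2 fold change of all genes by a median of 0.243 and called 924 higher and 3034 lower, so that genes higher in ND-646 cells made up 23.3% of the calls in place of 48.1%.

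**Figure D1:**
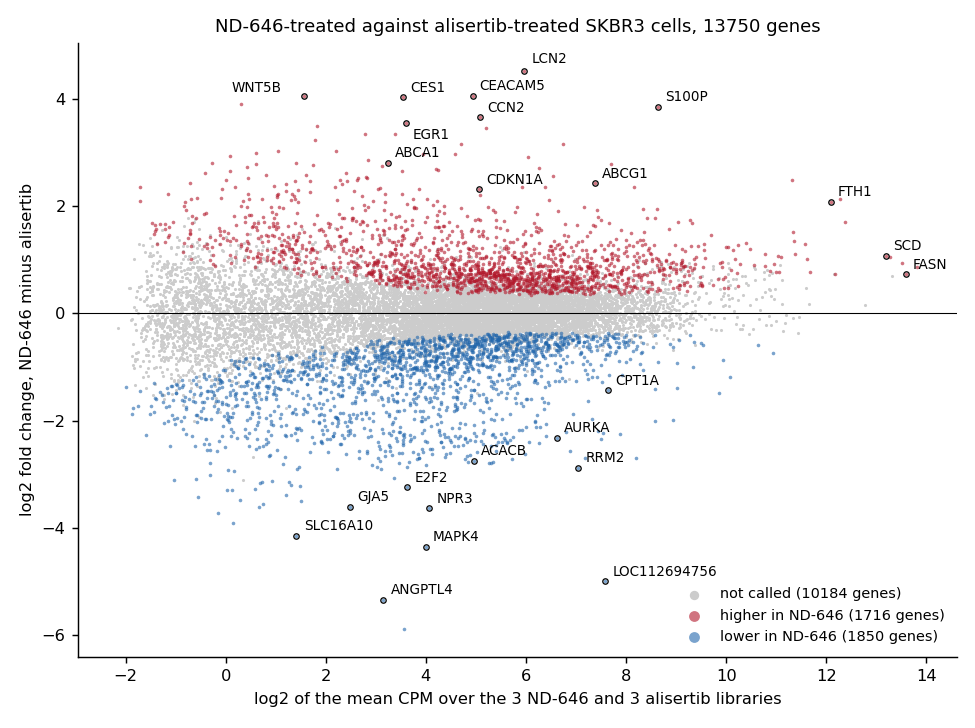
Each point is 1 of 13750 genes, with the log2 of its mean CPM over the 6 libraries on the x axis and the log2 fold change, ND-646 minus alisertib, on the y axis; red points were called higher in ND-646 cells (1716), blue points lower (1850) and grey points were not called. ANGPTL4 lies near the bottom, LCN2 lies highest, and FASN and SCD are among the most abundant genes called.

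Of the drug target genes, ACACB and AURKA separated the agents and ACACA did not. ACACB, which encodes ACC2 (GRCh37 chr12:109554392-109706031, plus strand), was at 4.68, 8.83 and 10.6 CPM in the ND-646 libraries, 51.7, 49.97 and 60.3 CPM in the alisertib libraries and 67.5, 58.0 and 64.3 CPM at day 7. Every ND-646 library was below every other library, and the level with alisertib was 6.71-fold that with ND-646 (log2 fold change -2.75, SE 0.28, adjusted p = 0.00054). ACACA, which encodes ACC1 (chr17:35441927-35766927, minus strand), was at 168, 215 and 292 CPM with ND-646 and 214, 173 and 199 CPM with alisertib. The ACACA groups overlapped and the difference was not called (log2 fold change 0.20, SE 0.21, adjusted p = 0.513), although without ND-646 replicate 1 it was 0.37 with an adjusted p of 0.035. FASN, the synthase that uses malonyl-CoA (chr17:80036214-80056170, minus strand), was at 14290, 14292 and 17651 CPM with ND-646, 9069, 9435 and 9288 CPM with alisertib and 6376, 5753 and 5289 CPM at day 7. Its groups did not overlap, and FASN was 1.66-fold higher with ND-646 than with alisertib (adjusted p = 0.0186). This call was lost without ND-646 replicate 3 or any 1 alisertib library (log2 fold changes 0.62 to 0.74, adjusted p from 0.061 to 0.106).

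AURKA, the target of alisertib (chr20:54944445-54967393, minus strand), was at 42.7, 23.3 and 32.8 CPM with ND-646, 191, 151 and 148 CPM with alisertib and 177, 154 and 164 CPM at day 7. AURKA was thus lower in the cells that did not receive its inhibitor (log2 fold change -2.31, SE 0.23, adjusted p = 0.000457), and with alisertib it differed from day 7 by -0.01 on the log2 scale (adjusted p = 0.975). AURKB, the related kinase of the chromosomal passenger complex, was at 3.27, 1.47 and 2.03 CPM with ND-646, 8.90, 8.25 and 10.2 CPM with alisertib and 16.7, 14.9 and 16.6 CPM at day 7. It was lowest with ND-646 and intermediate with alisertib, and both distances from day 7 were called (log2 fold changes -2.84 and -0.80, adjusted p = 0.000238 and 0.00201). In 1 fit of 24 libraries the distance with alisertib was not called (adjusted p = 0.129).

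**Figure D2:**
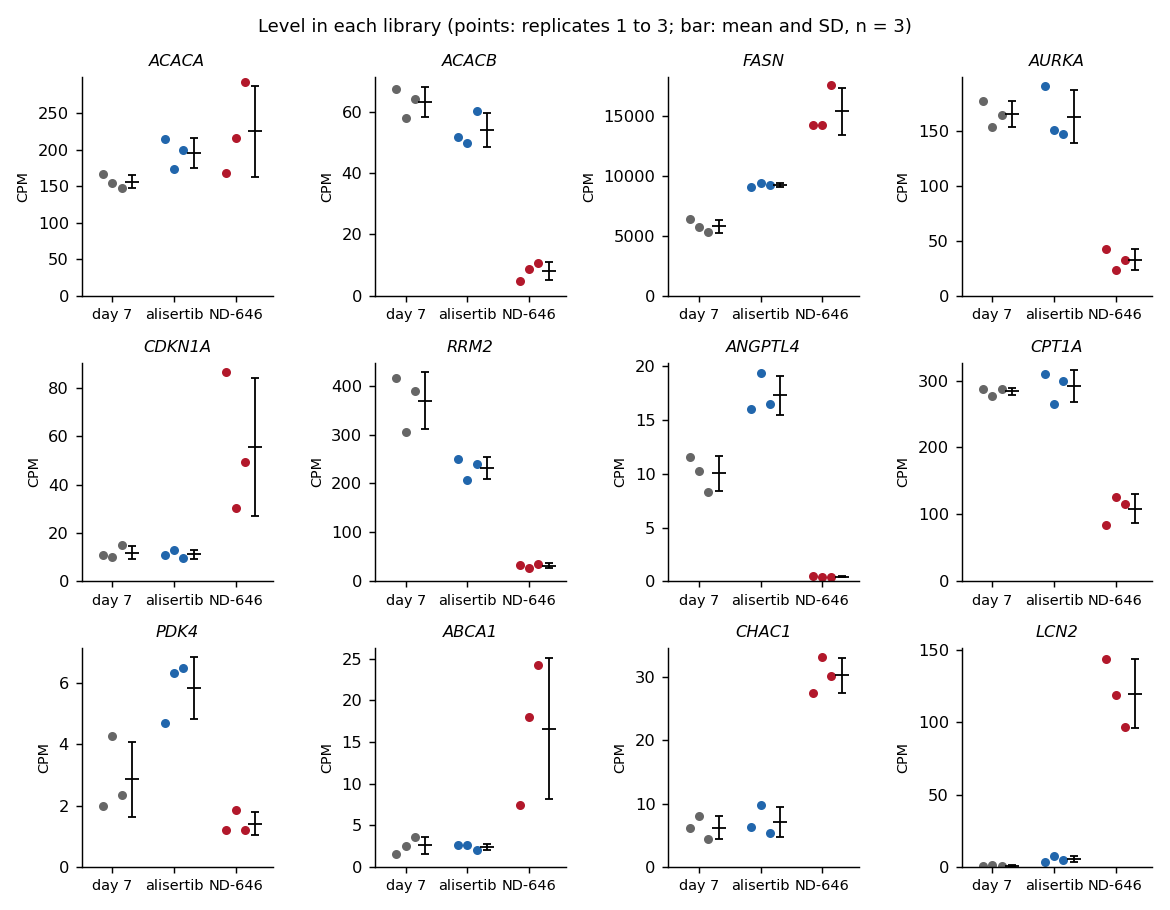
Levels in CPM (y axes, from 0) of 12 genes in the 3 untreated day 7 libraries (grey), the 3 alisertib libraries (blue) and the 3 ND-646 libraries (red), with the mean and SD of each group as a bar. ACACB, AURKA, RRM2, ANGPTL4, CPT1A and PDK4 are lowest with ND-646, CDKN1A, ABCA1, CHAC1 and LCN2 are highest with ND-646, and the ACACA groups overlap.

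Nearly all cell cycle transcripts tested were lower with ND-646. Transcripts of 4 lists, for mitotic entry and the Aurora network, spindle and kinetochore, replication, and homologous recombination and Fanconi repair, were lower with ND-646 for 98 of 101 members tested and higher for 0, against 13.5% of all genes called lower. The median log2 fold change of these members was -2.20, against 0.00345 over all genes tested, and for 100 of them no ND-646 library overlapped the alisertib libraries, against 47% of all genes tested. When any 1 library was left out, 89 to 99 of the 101 were called. Against day 7, 97 members were lower with ND-646 (median -2.36), whereas 34 were lower and 1 higher with alisertib (median -0.22), or 51 and 2 with the replicate block. In bulk RNA, fewer cycling cells and less of these transcripts per cell cannot be told apart.

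Within mitosis, all 27 spindle and kinetochore genes and 19 of 20 mitotic entry genes were lower with ND-646. BUB1B, a kinase of the spindle checkpoint, was at 9.56, 8.94 and 12.8 CPM with ND-646 and 75.4, 63.6 and 73.6 CPM with alisertib, a 6.82-fold difference (adjusted p = 0.000147). CDC20, the activator of the anaphase-promoting complex that the checkpoint restrains, was at 22.8, 11.9 and 18.6 CPM and 122, 102 and 103 CPM, and ESPL1, the separase that cleaves cohesin, at 5.91, 6.61 and 11.96 CPM and 54.9, 41.2 and 57.0 CPM. The libraries of both genes were widely apart (log2 fold changes -2.62 and -2.64). KNL1, a kinetochore scaffold, had the largest difference of the mitotic genes (log2 fold change -2.78, SE 0.20). CDC25B, a phosphatase that activates CDK1, was the member not called, at 231, 141 and 177 CPM with ND-646 and 202, 189 and 179 CPM with alisertib.

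All 32 replication genes were lower with ND-646. RRM2, the regulated subunit of ribonucleotide reductase, was at 34.2, 26.6 and 34.7 CPM with ND-646, 250.3, 206 and 239 CPM with alisertib and 415, 305 and 389 CPM at day 7, and its level with alisertib was 7.32-fold that with ND-646 (adjusted p = 0.000117). MCM10 and CDC45, which activate the replicative helicase, had log2 fold changes of -2.72 and -2.69. Among repair genes 20 of 22 were lower: RAD54L, a DNA motor protein of recombination, was at 2.93, 5.18 and 5.44 CPM with ND-646 and 22.8, 24.4 and 30.8 CPM with alisertib, and BLM, the Bloom helicase, at 2.98, 4.18 and 5.29 CPM and 20.97, 21.4 and 22.4 CPM. Neither gene's libraries overlapped, and both differences were called (log2 fold changes -2.52 and -2.38). XRCC2, which acts in recombination, was lower than at day 7 with ND-646 and higher with alisertib (log2 fold changes -1.85 and 0.38, adjusted p = 0.00221 and 0.0279), although the call with alisertib was lost without any 1 alisertib library or untreated replicate 2 or 3 (0.33 to 0.39).

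Because these genes moved together, their promoters were read from RefSeq (GRCh38.p14), for which 38 of 47 mitosis genes and 47 of 54 replication and repair genes had an entry. The windows span 250 bases before to 50 bases after the transcription start, and both strands were searched. The cell cycle homology region (CHR), searched as TTTGAA or TTCGAA, is bound by complexes that hold MuvB and either repress or activate mitotic genes. It was present in 73.7% of the mitosis windows (28 of 38), 8.51% of the replication and repair windows and 16.8% of all 27305 windows, or 11.3% of the 10639 windows of genes tested. An E2F site, searched as TTCCCGC or TTGGCGC or TTCGCGC or TTGCCGC, was present in 28.9%, 74.5% (35 of 47) and 12.8% (20.2% of the windows of genes tested), and in 46.8% of the replication and repair windows when the 50 bases after the start were left out. A CCAAT box, read by NF-Y, was present in 78.9%, 53.2% and 35.6% (36.6% of the windows of genes tested). A match of letters describes the sequence and not a bound site.

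Shown here are the 250 bases before the start, 5' to 3', of the 3 called mitosis genes with the largest difference whose window holds a CHR, and of the corresponding 3 replication and repair genes with an E2F match. The sequences show where the matches lie in genes described above, with CHR, E2F and CCAAT matches in capitals. No 2 of these matches overlap.
BUB1B (chr15:40160819-40161068, plus strand): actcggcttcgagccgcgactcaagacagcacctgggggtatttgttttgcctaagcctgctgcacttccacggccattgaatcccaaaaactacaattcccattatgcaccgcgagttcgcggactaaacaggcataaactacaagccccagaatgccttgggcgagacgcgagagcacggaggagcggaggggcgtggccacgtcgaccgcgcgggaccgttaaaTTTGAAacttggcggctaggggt
ESPL1 (chr12:53268049-53268298, plus strand): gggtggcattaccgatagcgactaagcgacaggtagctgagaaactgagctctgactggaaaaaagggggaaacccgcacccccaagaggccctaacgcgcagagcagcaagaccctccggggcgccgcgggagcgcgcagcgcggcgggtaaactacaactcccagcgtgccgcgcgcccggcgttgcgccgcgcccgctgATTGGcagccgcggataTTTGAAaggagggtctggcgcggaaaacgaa
CDC20 (chr1:43358731-43358980, plus strand): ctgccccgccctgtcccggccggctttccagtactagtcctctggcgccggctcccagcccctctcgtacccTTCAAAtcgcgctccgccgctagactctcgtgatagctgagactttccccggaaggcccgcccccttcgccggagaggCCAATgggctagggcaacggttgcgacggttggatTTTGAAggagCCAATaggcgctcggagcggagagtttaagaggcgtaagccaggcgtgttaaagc
RRM2 (chr2:10122318-10122567, plus strand): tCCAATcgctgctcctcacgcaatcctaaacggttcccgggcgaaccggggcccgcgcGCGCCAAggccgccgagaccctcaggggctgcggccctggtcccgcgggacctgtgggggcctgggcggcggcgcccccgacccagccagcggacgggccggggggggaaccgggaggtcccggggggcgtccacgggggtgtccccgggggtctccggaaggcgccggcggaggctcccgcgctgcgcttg
RAD54L (chr1:46247438-46247687, plus strand): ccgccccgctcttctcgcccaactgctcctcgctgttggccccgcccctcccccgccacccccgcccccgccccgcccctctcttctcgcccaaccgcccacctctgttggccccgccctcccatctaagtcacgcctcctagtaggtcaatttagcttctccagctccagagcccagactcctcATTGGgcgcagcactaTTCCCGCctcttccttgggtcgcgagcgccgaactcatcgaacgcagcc
BLM (chr15:90717096-90717345, plus strand): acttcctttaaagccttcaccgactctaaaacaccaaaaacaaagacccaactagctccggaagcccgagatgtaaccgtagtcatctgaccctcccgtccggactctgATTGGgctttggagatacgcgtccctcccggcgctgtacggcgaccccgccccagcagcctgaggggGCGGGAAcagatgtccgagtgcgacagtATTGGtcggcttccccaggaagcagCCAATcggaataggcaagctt
The CHR of BUB1B begins 23 bases before the start and that of ESPL1 31 bases before it, between the start and a CCAAT match. CDC20 holds a second CHR match further upstream. RAD54L and BLM carry E2F letters within 74 bases of the start, whereas the match in RRM2 begins 192 bases before it.

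Regulators of the G1 phase differed member by member. Of 19 cyclins, CDKs, pocket proteins and E2Fs, 11 were lower with ND-646 and 0 were higher. The activator E2F1 was at 9.48, 10.7 and 11.5 CPM with ND-646 and 40.0, 42.6 and 49.8 CPM with alisertib, and E2F2, also an activator, was at 2.42, 2.29 and 2.42 CPM and 24.9, 18.5 and 23.8 CPM. E2F2 thus stood 9.44-fold higher with alisertib (adjusted p = 0.000117). Cyclin D1 (CCND1) was at 306, 379 and 358 CPM with ND-646 and 281, 277 and 226 CPM with alisertib, which was not called (adjusted p = 0.0744), although it was without ND-646 replicate 1 (log2 fold change 0.49, adjusted p = 0.00274), in 1 fit of 24 libraries (adjusted p = 0.00672) and by DESeq2 (adjusted p = 0.0294).

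Among 6 CDK inhibitors tested, 1 was higher and 1 lower with ND-646. Each is 16.7% of the members, near the 12.5% and 13.5% of all genes. CDKN1A (p21) was at 86.5, 30.5 and 49.2 CPM with ND-646, 10.97, 13.0 and 9.45 CPM with alisertib and 10.8, 9.88 and 14.9 CPM at day 7. The alisertib and day 7 libraries overlapped, and CDKN1A was 4.95-fold higher with ND-646 than with alisertib (adjusted p = 0.00291). CDKN2B (p15) was at 19.4, 26.2 and 27.8 CPM with ND-646, 27.3, 24.9 and 28.4 CPM with alisertib and 8.27, 10.7 and 10.7 CPM at day 7. It was above day 7 with both agents (log2 fold changes 1.31 and 1.46) and was not called between them (adjusted p = 0.576). CDKN2C (p18), itself an E2F target, was lower with ND-646 (log2 fold change -1.15, SE 0.18).

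LMNB1 (lamin B1), whose loss is a common mark of senescence, and MKI67 (Ki-67), a mark of cycling cells, were named after their values had been seen. LMNB1 was at 15.4, 14.3 and 16.3 CPM with ND-646, 56.7, 50.4 and 57.5 CPM with alisertib and 80.5, 66.6 and 79.9 CPM at day 7. It was below day 7 with both agents (log2 fold changes -2.30 and -0.45, adjusted p = 5.47e-05 and 0.00864) and lower with ND-646 than with alisertib (-1.84, SE 0.13). The distance of LMNB1 from day 7 with alisertib was not called in 1 fit of 24 libraries (adjusted p = 0.125). MKI67 was at 22.9, 30.1 and 49.4 CPM with ND-646, 257, 153 and 192 CPM with alisertib and 344, 244 and 245 CPM at day 7. Its distance from day 7 was called with ND-646 (-3.02); with alisertib it was -0.45 and was called only with the replicate block (adjusted p = 0.000445, against 0.0919 without it) or without alisertib replicate 1 (log2 fold change -0.67, adjusted p = 0.0159). On these transcripts the alisertib libraries lay nearer to untreated than to ND-646 cells.

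Lipid genes split by function. Several genes of sterol regulation and uptake, LXR targets and lipogenic enzymes were higher with ND-646 than with alisertib, while several genes of fatty acid oxidation were lower. SREBP transcription factors drive sterol and fatty acid synthesis when membrane sterols or unsaturated fatty acids run low, and LXR receptors sense oxysterols and induce sterol export. The promoter windows described above were also searched for a sterol response element (TCACNCCAC). It was in 1 of 29 windows of the sterol synthesis and uptake lists (3.45%), against 1.17% of all windows. A CCAAT box was in 58.6% of those 29 windows, against 35.6%.

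Of 22 cholesterol synthesis enzymes, 6 were higher and 1 was lower with ND-646, with a median log2 fold change of 0.55. FDPS, the farnesyl diphosphate synthase, was at 1361, 361 and 681 CPM with ND-646 and 262, 229 and 243 CPM with alisertib, and MSMO1, a sterol C4-methyl oxidase, at 629, 286 and 444 CPM and 211, 167 and 179.5 CPM. The groups did not overlap for these 2 genes, but the ND-646 libraries were spread and replicate 2 was the lowest for each. Without ND-646 replicate 2 the count of enzymes higher was 14, and without alisertib replicate 1, 2 or 3 it was 2, 0 or 0, so that FDPS was not called without any 1 alisertib library and MSMO1 not without replicate 2 or 3 (log2 fold changes 1.66 to 1.76 and 1.21 to 1.25). Against day 7, 15 enzymes were higher with ND-646 (median 0.97) and 12 with alisertib (median 0.36). LBR, a sterol reductase that also anchors lamin B at the nuclear envelope, was the enzyme lower with ND-646 (log2 fold change -0.70, adjusted p = 0.0167), a call lost without alisertib replicate 1 (-0.67) or 3 (-0.67).

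Of 13 SREBP regulators and sterol uptake genes, 8 were higher with ND-646 and 1 lower (5, 4 and 5 higher without alisertib replicate 1, 2 and 3). SREBF1, which encodes SREBP-1, was at 3076, 2351 and 3134 CPM with ND-646, 1293, 1364 and 1436 CPM with alisertib and 1206, 1001 and 1132 CPM at day 7, and was 2.08-fold higher with ND-646 (adjusted p = 0.00281). NPC2, which carries cholesterol out of lysosomes, was 3.05-fold higher and STARD4, a cytosolic sterol carrier, 2.30-fold higher (adjusted p = 0.00593 and 0.00184). TMEM97, an ER protein that binds NPC1, went the other way, at 83.3, 51.3 and 63.5 CPM with ND-646 and 152, 119 and 142 CPM with alisertib (adjusted p = 0.00567).

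The LXR targets held the largest lipid increases. Of 11 tested, 6 were higher with ND-646 and 0 lower (median 0.71). ABCG1, a sterol exporter, was at 304, 246 and 294 CPM with ND-646, 45.2, 57.6 and 54.3 CPM with alisertib and 44.6, 48.8 and 43.5 CPM at day 7, a 5.35-fold difference between the agents (adjusted p = 0.000143). ABCA1, which loads cholesterol onto apolipoproteins, was at 7.48, 18.01 and 24.3 CPM with ND-646, 2.58, 2.58 and 1.97 CPM with alisertib and 1.596, 2.49 and 3.62 CPM at day 7 (7.00-fold between the agents, adjusted p = 0.00243). For both genes the alisertib and day 7 libraries overlapped, and their difference was not called (adjusted p = 0.153 and 0.853). LPCAT3, which builds polyunsaturated phospholipids, and PLTP, a phospholipid transfer protein, were 1.89-fold and 2.08-fold higher with ND-646.

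Of 15 fatty acid synthesis genes, 3 were higher with ND-646 (FASN, ACSS2 and MID1IP1) and 3 lower (ACACB, OLAH and MLYCD), with 6 lower without ND-646 replicate 1. Each 3 are 20% of the members, against 12.5% higher and 13.5% lower over all genes. MLYCD, the malonyl-CoA decarboxylase, kept its call (log2 fold change -0.51, adjusted p = 0.0391) only without ND-646 replicate 1, and lost it without each other library (-0.60 to -0.45, adjusted p from 0.0683 to 0.153) and with the replicate block (adjusted p = 0.0716). MID1IP1, a protein that promotes ACC polymerization, was at 189, 152 and 159 CPM with ND-646 and 47.2, 57.0 and 53.04 CPM with alisertib, a 3.17-fold difference (adjusted p = 0.00022). ACSS2, which makes acetyl-CoA from acetate, was 2.42-fold higher (adjusted p = 0.00702). OLAH, a thioesterase that releases medium-chain fatty acids from FASN, was at 0.085, 0.68 and 0.21 CPM with ND-646 and 2.42, 3.30 and 3.17 CPM with alisertib, low but not overlapping (log2 fold change -3.15, SE 0.53). Among 14 desaturases and elongases 4 were higher and 2 lower (4 lower without ND-646 replicate 1). The 4 are 28.6% of the members, and the 2 are 14.3%, near the 13.5% of all genes. SCD, the stearoyl-CoA desaturase, was at 13773, 10800 and 13592 CPM with ND-646, 5647, 6334 and 6079.8 CPM with alisertib and 3867, 5002 and 3795 CPM at day 7 (2.11-fold between the agents, adjusted p = 0.00387). FADS2, which desaturates polyunsaturated fatty acids, was at 156, 86.6 and 138 CPM with ND-646, 51.4, 57.8 and 58.9 CPM with alisertib and 19.1, 27.5 and 16.6 CPM at day 7. For SCD and FADS2 the alisertib libraries lay between the other groups, and both agents were above day 7.

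Fatty acid oxidation genes and PPAR targets held some of the largest decreases. Of 24 tested, 8 were lower with ND-646 and 1 higher (median -0.33), with 17 lower without ND-646 replicate 1 and 5 without alisertib replicate 2. The core of a PPAR response element, searched as GGTCANAGG, was in 0 of the 20 promoter windows of these genes, against 1.42% of all windows. ANGPTL4, a secreted inhibitor of lipoprotein lipase and a PPAR target (chr19:8428173-8439254, plus strand), was at 0.47, 0.39 and 0.42 CPM with ND-646, 16.0, 19.4 and 16.5 CPM with alisertib and 11.6, 10.3 and 8.35 CPM at day 7. No libraries of the 3 groups overlapped: ANGPTL4 was below day 7 with ND-646 (log2 fold change -4.55, adjusted p = 5.47e-05) and above it with alisertib (0.79, adjusted p = 0.00392).

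CPT1A, the gene of the malonyl-CoA-sensitive carrier step, was at 84.5, 126 and 115 CPM with ND-646, 310, 265 and 299 CPM with alisertib and 287, 277 and 287 CPM at day 7. It was lower with ND-646 than with alisertib (log2 fold change -1.43, SE 0.17, adjusted p = 0.00103), and with alisertib its distance from day 7 was 0.05 (adjusted p = 0.662). PDK4, which turns off pyruvate dehydrogenase, was at 1.19, 1.86 and 1.19 CPM with ND-646 and 4.68, 6.34 and 6.49 CPM with alisertib (log2 fold change -2.04, SE 0.27). The distance of PDK4 from day 7 with ND-646 was smaller, at -1.01, and was not called (adjusted p = 0.0648). It was called with the replicate block (adjusted p = 0.0292). HADHA and HADHB, the subunits of the mitochondrial trifunctional protein, were not called (log2 fold changes -0.09 and -0.20).

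**Figure D3:**
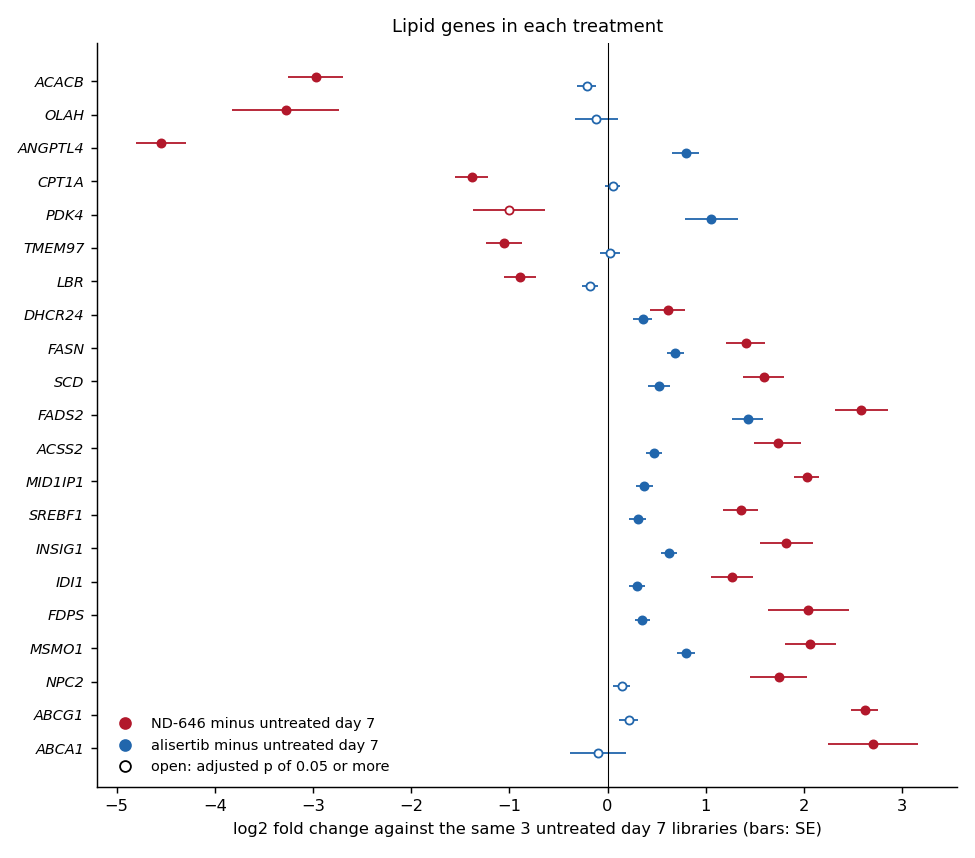
The x axis gives the log2 fold change of 21 lipid genes against the same 3 untreated day 7 libraries, in red for ND-646 and in blue for alisertib, with the SE as a bar and open points where the adjusted p-value was 0.05 or more. ANGPTL4 (-4.55 and 0.79) lies on opposite sides of 0. With the replicate block the alisertib point of ACACB (adjusted p = 0.0461) and the ND-646 point of PDK4 (adjusted p = 0.0292) were called as well.

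Stress response transcripts were higher with ND-646. The integrated stress response raises ATF4 translation when amino acids, haem or the ER are under strain, and ATF4 induces amino acid synthesis and transport genes. Of 30 members tested, 25 were higher with ND-646 and 0 lower, with a median log2 fold change of 1.16, and 18 to 26 were higher when any 1 library was left out. Against day 7, 25 were higher with ND-646 (median 1.19), and 6 were higher and 1 lower with alisertib (median 0.06), or 10 and 4 with the replicate block. ATF4 itself was at 1102, 607 and 623 CPM with ND-646 and 331, 360.4 and 321 CPM with alisertib (adjusted p = 0.00876, and 0.0507 without alisertib replicate 3, where the log2 fold change was 1.16).

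CHAC1, a glutathione-degrading enzyme and ATF4 target, was at 27.5, 33.1 and 30.1 CPM with ND-646, 6.26, 9.73 and 5.27 CPM with alisertib and 6.21, 7.99 and 4.37 CPM at day 7, a 4.26-fold difference between the agents (adjusted p = 0.000789). SLC7A11, the cystine transporter, was at 125, 130.2 and 172 CPM with ND-646 and 35.8, 31.3 and 31.3 CPM with alisertib (4.32-fold, adjusted p = 0.000185). Neither gene's libraries overlapped between the agents, while those of alisertib and day 7 did for both genes. DDIT4, an inhibitor of mTORC1, PCK2, the mitochondrial PEP carboxykinase, and VLDLR, a lipoprotein receptor, were 3.85-fold, 3.94-fold and 3.803-fold higher with ND-646. DDIT3 (CHOP), a transcription factor of terminal ER stress, was at 61.1, 49.5 and 45.5 CPM with ND-646, 11.4, 21.2 and 13.8 CPM with alisertib and 7.45, 12.05 and 8.17 CPM at day 7 (3.35-fold between the agents, adjusted p = 0.00179). A C/EBP-ATF response element was searched as TGATGNAA on both strands. It was in 12.5% of the windows of the 24 members with a RefSeq entry (3 windows). It was in 3.75% of all windows and 1.6% of the windows of genes tested. The window of CHAC1 is shown because it holds 1 of these matches, in capitals, beginning 209 bases before the start.
CHAC1 (chr15:40953221-40953470, plus strand): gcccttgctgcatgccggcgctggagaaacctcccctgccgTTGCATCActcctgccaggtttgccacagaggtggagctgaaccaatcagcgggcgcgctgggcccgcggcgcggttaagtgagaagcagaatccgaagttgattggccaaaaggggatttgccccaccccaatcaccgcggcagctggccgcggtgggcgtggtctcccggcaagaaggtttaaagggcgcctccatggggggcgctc

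Targets of NRF2, the factor that induces antioxidant genes, were higher for 11 of 22 members and lower for 0 (median 0.70; 7 and 6 without alisertib replicate 1 and 3). FTH1, the ferritin heavy chain, was at 10063, 6105 and 5031 CPM with ND-646 and 1348, 2164 and 1493 CPM with alisertib, and FTL, the light chain, at 732, 425 and 383 CPM and 127, 150.1 and 124 CPM. Both were far apart between the agents (4.22-fold and 3.83-fold), and as both have many processed pseudogenes, the split of reads among copies is uncertain. GCLC, which limits glutathione synthesis, was 2.24-fold higher (adjusted p = 0.00205). NQO1, a quinone reductase, was 1.93-fold higher (adjusted p = 0.0115), though not without alisertib replicate 1 or 3 (log2 fold changes 0.84 and 0.87).

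Lysosomal genes followed. Of 40 hydrolases and membrane proteins, 20 were higher with ND-646 and 2 lower (median 0.47), with 11 higher without alisertib replicate 2 or 3. CD63, a membrane protein of late endosomes, was at 879, 435 and 474 CPM with ND-646 and 161, 174 and 181 CPM with alisertib (3.44-fold, adjusted p = 0.00244). FUCA1 and IDS, which degrade fucosylated glycans and glycosaminoglycans, were 2.66-fold and 2.54-fold higher, and PSAP, the precursor of saposins, 2.02-fold higher. Beta-galactosidase (GLB1), the enzyme behind the histochemical stain for senescence, was not called (log2 fold change 0.23, adjusted p = 0.185). CTSC, a protease activator, was lower (log2 fold change -0.70), though not without alisertib replicate 1 (-0.62) or 3 (-0.69). GLA, the alpha-galactosidase, was the other member lower (log2 fold change -1.01), though not without ND-646 replicate 3 (-0.96) or alisertib replicate 1, 2 or 3 (-1.01, -1.05 and -0.97).

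Secreted factors of senescent cells were higher for 10 of 21 members tested and lower for 1 (median 0.95), and 7 to 12 were higher when any 1 library was left out. The list holds 40 genes, and those without a row in the count table could not be read. LCN2 (lipocalin-2), an iron-siderophore carrier, was at 144, 119 and 96.4 CPM with ND-646, 3.27, 7.47 and 4.80 CPM with alisertib and 0.38, 1.22 and 0.27 CPM at day 7. It was above day 7 with both agents (log2 fold changes 7.61 and 3.10) and 22.9-fold higher with ND-646 than with alisertib (adjusted p = 0.00016), the largest increase among genes named by the rule. GDF15, a stress cytokine, was at 192, 69.0 and 86.4 CPM with ND-646, 13.0, 19.1 and 13.6 CPM with alisertib and 1.86, 5.50 and 2.14 CPM at day 7 (7.55-fold between the agents, adjusted p = 0.00154). The chemokine CCL22 and the growth factor CSF1 were 6.41-fold and 3.54-fold higher with ND-646. For LCN2, GDF15, CCL22 and CSF1 day 7 cells were lowest and ND-646 cells highest. IGFBP5, which binds insulin-like growth factors, was the member lower with ND-646, at 29.4, 47.0 and 48.7 CPM against 152, 98.3 and 147 CPM (adjusted p = 0.00242).

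Immune transcripts were read from lists for interferon, antigen presentation and NF-kB. Of 23 interferon-stimulated genes tested, 5 were higher with ND-646 and 0 lower (10 higher without ND-646 replicate 1 and 3 without any 1 alisertib library), and 15 were above day 7 with each agent. The 5 are 21.7% of those tested, against 12.5% of all genes. The list holds 39 genes, of which 24 have a row in the count table. OAS1, which activates RNase L, was at 30.4, 29.4 and 25.4 CPM with ND-646, 6.07, 7.95 and 6.86 CPM with alisertib and 1.77, 4.40 and 2.67 CPM at day 7, so that it was above day 7 with both agents and 4.06-fold higher with ND-646 (adjusted p = 0.000195). Of 20 genes of MHC class I presentation, 9 were higher and 0 lower (4, 5 and 4 without alisertib replicate 1, 2 and 3). PSMB10, an immunoproteasome subunit, was 2.88-fold higher, NLRC5, the MHC class I transactivator, 2.97-fold, and B2M 1.74-fold (adjusted p = 0.000959, 0.00338 and 0.00795). Of 20 NF-kB subunits and targets, 7 were higher and 1 lower (11 higher without ND-646 replicate 1 and 3 without any 1 alisertib library). BIRC3, an inhibitor of apoptosis, and ICAM1, an adhesion molecule, were 3.35-fold and 3.53-fold higher (adjusted p = 0.000515 and 0.000254).

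BH3-only genes, whose products promote apoptosis, were among the members of the BCL-2 family that differed. BMF was at 67.1, 109 and 95.5 CPM with ND-646 and 19.8, 25.3 and 23.3 CPM with alisertib, and BBC3 (PUMA) at 28.9, 16.0 and 19.9 CPM and 4.27, 5.70 and 6.37 CPM. Both were about as far apart (3.97-fold and 3.94-fold, adjusted p = 0.000537 and 0.00131). Of the 16 family members tested 4 were higher and 1 lower, with 8 higher without ND-646 replicate 1 and 2 without alisertib replicate 2 or 3. The 4 and the 1 are 25% and 6.25% of the members, against 12.5% and 13.5% of all genes.

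Luminal and HER2-linked genes did not move as a block. ERBB2 was not called between the agents (log2 fold change 0.16, adjusted p = 0.546). Of 32 luminal epithelial genes, 9 were higher with ND-646 and 6 lower (12 lower without ND-646 replicate 1, and 3 without alisertib replicate 1 or 3). These are 28.1% and 18.8% of the members, against 12.5% and 13.5% of all genes. CEACAM5, a glycoprotein of secretory epithelium, was at 48.7, 59.9 and 64.2 CPM with ND-646, 3.83, 3.44 and 3.13 CPM with alisertib and 4.52, 5.10 and 3.03 CPM at day 7 (16.6-fold between the agents, adjusted p = 8.54e-05). CEACAM6 was at 474, 522 and 448 CPM with ND-646 and 94.4, 96.5 and 91.2 CPM with alisertib (5.10-fold), and as these paralogs are alike in sequence their reads may be shared. S100P, a calcium-binding protein, was at 1295, 426 and 511 CPM with ND-646 and 43.0, 66.8 and 44.0 CPM with alisertib, and ELF3, an epithelial transcription factor, at 1045, 839 and 797 CPM and 389, 349.7 and 375 CPM. TFF3, a secreted trefoil peptide, was lower, at 3.44, 1.11 and 1.16 CPM against 14.9, 10.9 and 14.1 CPM (adjusted p = 0.00258). PPP1R1B, in the 17q12 region beside ERBB2, was at 2.42, 2.07 and 1.65 CPM with ND-646 and 15.9, 16.6 and 12.9 CPM with alisertib (adjusted p = 0.000171).

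Translation genes went both ways. All 75 cytosolic ribosomal protein genes tested had a positive log2 fold change (median 0.83), and 22 were called. That count moved when 1 library was left out. It was 59 without ND-646 replicate 1, 49 without ND-646 replicate 3 and 0 without any 1 alisertib library. The part of the share of ribosomal protein messages in ND-646 replicate 1, given above, was not tested. Against day 7, 14 of the 75 were higher and 0 lower with ND-646 (median 0.65). With alisertib 12 were lower and 0 higher (median -0.18), or 37 and 0 with the replicate block. Of 34 MYC-linked ribosome biogenesis genes, 13 were lower with ND-646 and 0 higher (median -0.38; 21 without ND-646 replicate 1, 8 without ND-646 replicate 3, and 7, 6 and 5 without alisertib replicate 1, 2 and 3). MYC was at 97.0, 94.4 and 97.5 CPM with ND-646 and 208, 157 and 187 CPM with alisertib (log2 fold change -0.94, adjusted p = 0.00206). Of 13 messages encoded by mitochondrial DNA, 12 were higher with ND-646 (median 1.28, with 5 and 4 higher without alisertib replicate 2 and 3). Of 50 nuclear-encoded respiratory chain genes 1 was higher and 2 were lower. Without ND-646 replicate 1, 24 of these 50 were lower and 3 higher, and with library totals 9 were lower. Against day 7, 8 of the 50 were lower and 0 higher with ND-646 (median -0.19). With alisertib 31 were lower and 0 higher (median -0.30), or 38 and 0 with the replicate block. Reads of mitochondrial messages can also match nuclear copies of mitochondrial DNA.

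**Figure D4:**
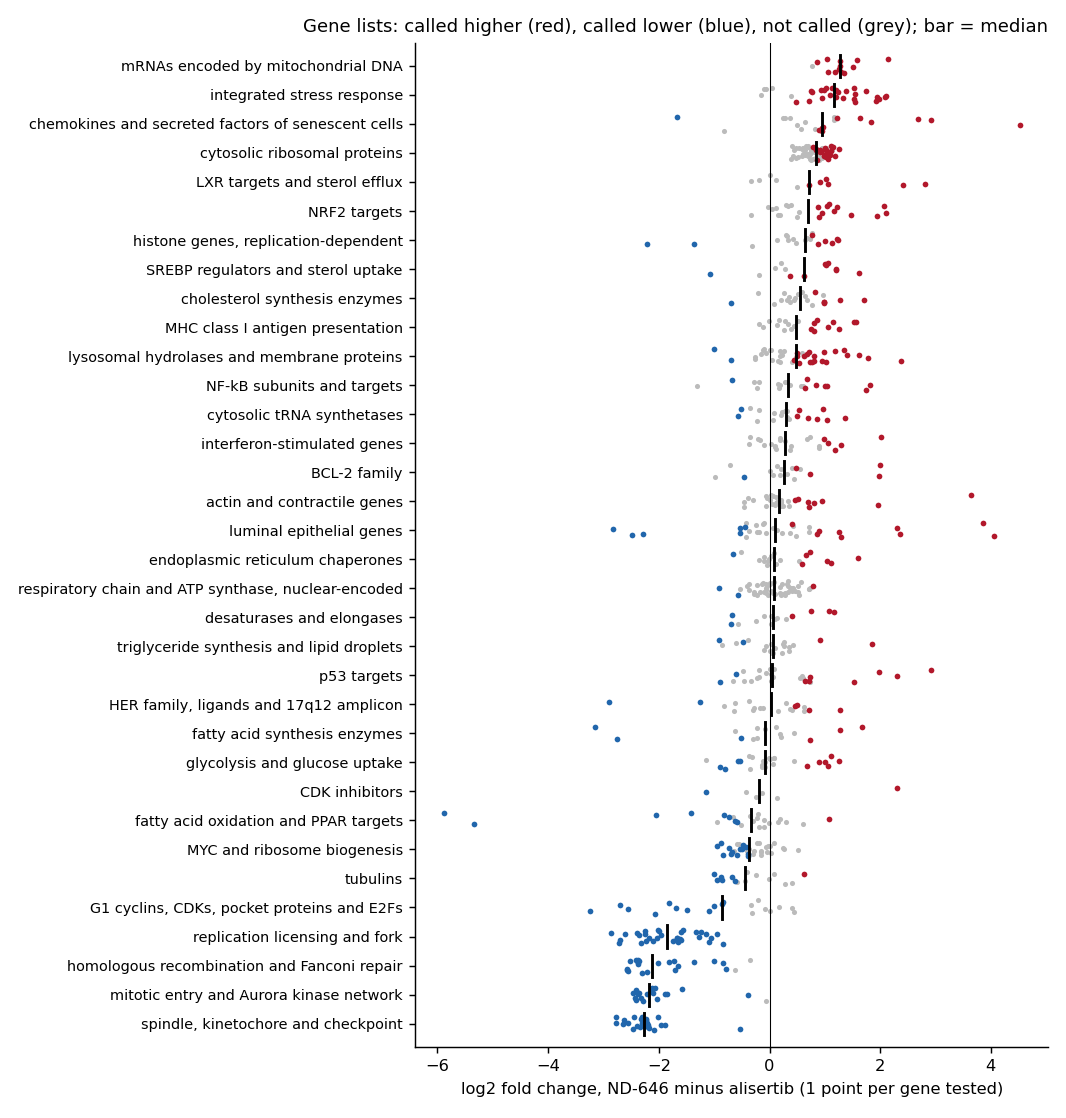
Each point is 1 gene of 1 of 34 lists, placed on the x axis by its log2 fold change, ND-646 minus alisertib, with red for called higher, blue for called lower and grey for not called; the black bar is the median of the list. The 4 cell cycle lists have medians from -2.27 to -1.86, and the integrated stress response (1.16) and mitochondrially encoded messages (1.28) have the highest medians.

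The 20 genes named for the largest differences (10 in each direction, no overlap, at least 5 CPM in the higher group) included several outside these groups, and all 20 stayed called without each library in turn. WNT5B, a non-canonical WNT ligand, was at 6.72, 5.22 and 4.84 CPM with ND-646 and 0.25, 0.35 and 0.39 CPM with alisertib (16.5-fold). CES1, a carboxylesterase that hydrolyses esters and lipids, was at 27.7, 17.9 and 19.9 CPM and 1.32, 1.53 and 1.16 CPM (16.3-fold). NIBAN1, a stress-induced regulator of translation, was at 47.9, 79.0 and 76.5 CPM and 3.61, 10.5 and 4.48 CPM (10.9-fold), and BEX2 and SDCBP2 were 10.1-fold and 11.2-fold higher. EGR1, an immediate early transcription factor, was at 27.8, 15.5 and 23.7 CPM with ND-646, 1.76, 2.12 and 1.80 CPM with alisertib and 28.6, 6.34 and 16.9 CPM at day 7. Its difference therefore lay on the alisertib side (log2 fold change from day 7 of -3.18, adjusted p = 0.00135), while with ND-646 it was 0.37 (adjusted p = 0.58).

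On the lower side, MAPK4, an atypical MAP kinase, was at 1.96, 0.57 and 1.999 CPM with ND-646 and 38.2, 24.6 and 28.7 CPM with alisertib (log2 fold change -4.35, SE 0.41). NPR3, the natriuretic peptide clearance receptor, was at 1.53, 2.22 and 3.75 CPM and 36.6, 25.4 and 31.2 CPM, and SLC16A10, a transporter of aromatic amino acids, at 0.085, 0.36 and 0.39 CPM and 6.601, 3.17 and 5.40 CPM. No libraries of these genes overlapped. GJA5 (connexin 40) was at 0.64, 0.93 and 0.98 CPM with ND-646, 11.9, 9.78 and 9.52 CPM with alisertib and 36.5, 48.6 and 34.3 CPM at day 7. H19, an imprinted long non-coding RNA, was at 0.72, 0.36 and 0.56 CPM, 4.56, 5.19 and 5.49 CPM, and 64.9, 40.7 and 59.9 CPM. GJA5 and H19 were below day 7 with both agents and lowest with ND-646. The remaining genes, LOC112694756 and DLG2, had log2 fold changes of -4.99 and -3.50.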

How the data were processed

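RNA of SKBR3 cells was sequenced by the study as paired-end libraries. HISAT2 was used by the authors for alignment (GRCh37) and StringTie for assembly. The table the authors deposited holds unnormalized counts of reads for each gene in 24 libraries; the counting settings are not given in the sources used here. The labels name an mRNA kit and the methods a total RNA kit. The lowest deposited count was 1, so a gene at 0 in any library has no row.

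For each pair of groups, counts entered edgeR (4.0.16, under R 4.3.3; filterByExpr, TMM, estimateDisp, glmQLFit and glmQLFTest, 2-sided, Benjamini-Hochberg adjustment; called at 0.05), with no replicate term. CPM used TMM factors over all libraries. With 3 against 3, no exact permutation test goes below 0.1. Same-numbered libraries deviated together in alisertib against day 7 (correlations 0.160, 0.229 and 0.114), so their numbers were taken to pair them there and blocked values are given where a call changed. In ND-646 against alisertib (0.178, 0.033 and 0.303), ND-646 replicate 2 correlated better with another number (0.106). In ND-646 against day 7 (0.187, 0.174 and 0.092), each replicate also correlated best with its own number. Values of that contrast are nevertheless from the fit without a block. With the block 2332 genes were higher and 2378 lower with ND-646 than at day 7.

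Named are the drug targets, the 10 largest differences in each direction and the 6 largest called members of each of 36 lists, any member where a list is ordered by role, and those called in opposite directions against day 7. The members and lists were chosen with earlier results of these data known. Positions are from GENCODE for GRCh37 and promoters from RefSeq. Alternatives were DESeq2 1.42.0, RLE factors, library totals, other filters, 1 fit of 24 libraries, the replicate block, fold limits, day 0 cells as reference, a shorter promoter window and leaving out each library. Results for some genes are not reported here.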

Additional observations from a re-analysis of the deposited data

Results flagged for a closer look

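Of the genes with values here, 8 were called in opposite directions by the agents against day 7 and were also called between the agents, which is the test of the difference. These were ANGPTL4 (log2 fold change, ND-646 minus alisertib, -5.34), S100P (3.85), CCN2 (3.65), TFF3 (-2.83), MIEN1 (1.27), SLC16A3 (1.00), ZYX (0.72) and XRCC2 (-2.22). For ANGPTL4 both distances from day 7 (-4.55 with ND-646 and 0.79 with alisertib) were called without each library in turn. For the other 7 at least 1 of these distances lost its call when 1 library was left out. CCN2, a YAP target secreted to the matrix, was at 82.5, 54.5 and 52.2 CPM with ND-646, 6.19, 4.54 and 4.33 CPM with alisertib and 28.0, 5.82 and 8.29 CPM at day 7, and without day 7 replicate 1, the highest of its group, its distance from day 7 with alisertib was -0.49. S100P with alisertib was -0.59 from day 7 (adjusted p = 0.0426 by edgeR), and from -0.83 to -0.40 without 1 library. MIEN1, beside ERBB2 in the 17q12 region, was 0.80 from day 7 with ND-646 (adjusted p = 0.044), and not called without any 1 day 7 library (0.40 at the lowest over all libraries left out). Its call between the agents was lost without alisertib replicate 1 or 3 (log2 fold changes 1.24 and 1.22). SLC16A3, the lactate exporter MCT4, was at 475, 323 and 371 CPM with ND-646, 178, 193 and 213 CPM with alisertib and 233, 234 and 251 CPM at day 7.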

How the results depend on the processing

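Counts of genes called stayed within 1.5 times under DESeq2, RLE factors and both filters on low counts in the 3 comparisons. For ND-646 against alisertib they were 924 higher and 3034 lower with library totals, 3133 and 2825 in 1 fit of 24 libraries, 758 and 1044 with an unadjusted p under 0.05 and a 2-fold limit, 673 and 954 with the adjusted p and that limit, and 698 to 3235 and 927 to 3380 with 1 library left out. For ND-646 against day 7 they were 1451 higher with library totals, 3667 higher in 1 fit, 1198 and 1181, and 1100 and 1127 with the fold limits, and 1264 to 3697 and 1450 to 3921 with 1 library left out. For alisertib against day 7 they were 615 and 526 in 1 fit, 350 and 101, and 291 and 81 with the fold limits, and 545 to 1325 and 517 to 1475 with 1 library left out. The causes were not tested, other than that a fold limit admits fewer genes. Among the genes with values here, 37 calls against day 7 were lost and 2 gained in 1 fit of 24 libraries. With the replicate block, alisertib against day 7 gave 2116 and 2025, and ND-646 against alisertib, where the numbers did not pair the libraries by the rule used, gave 1535 and 1755, although replicates 1 and 3, and not 2, correlated best with their own number there. With day 0 in place of day 7 cells, the log2 fold change with alisertib changed sign for ACACB (0.357), CDC20 (-0.266), OLAH (0.984), ATF4 (0.55), SLC7A11 (0.645) and IGFBP5 (-0.424).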

Other observations

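Among glycolysis genes, 6 of 25 tested were higher with ND-646 (against 12.5% of all genes), among them SLC2A10, a glucose transporter, PFKFB3, which makes the activator of phosphofructokinase, and the aldolases ALDOA and ALDOC (log2 fold changes 1.25, 1.06, 1.11 and 0.89). Another 4 were lower, a share near the 13.5% of all genes, with PKM, the pyruvate kinase, and PFKM at -0.54 and -0.57. Without ND-646 replicate 1, 13 were lower, and without alisertib replicate 2 or 3, 2 were. Against day 7, 6 glycolysis genes were higher and 9 lower with ND-646 (median -0.45). With alisertib 2 were higher and 15 lower (median -0.29), or 3 and 16 with the replicate block. Of 15 tubulins 6 were lower with ND-646 (against 13.5% of all genes) and 1 higher, with TUBA1B at -1.01 and TUBB at -0.86; reads of these near-identical genes may be shared. Without ND-646 replicate 2 or 3 or alisertib replicate 2 or 3 the count was 4, and without alisertib replicate 1 it was 3.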
